A study of Homo sapiens with 16 samples.

Results

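Genes whose annotated span runs from 300 to 500 kb were followed through cisplatin treatment and PRMT1 knockdown in SK-OV-3, a long-established cell line from a human ovarian carcinoma. A gene was taken if its annotated end lay 300000 to 500000 bases from its start, if it measured 1 RPKM or more in both untreated shScramble libraries, and if it was not on chromosome Y. RPKM is a read number divided by the length of the gene model and by the library total. Of 57820 genes in the deposited table, 594 had such a span and 278 of these met the level. COL23A1, POLA1, ACACA and RPTOR were left out by the rule, so 274 genes remained, and all 274 passed the filter on low values and were tested. The level part of the rule uses the untreated shScramble libraries, so those libraries entered both the choice of the genes and the comparisons made with them.

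The libraries came from cells with 1 of 3 shRNAs against PRMT1 (shPRMT1 #1, #3 and #5) or a scrambled control (shScramble), each either given 20 µM cisplatin, which crosslinks DNA, for 24 h or left untreated. Each of the 8 groups had 2 biological replicates, which gave 16 libraries. What the untreated cells received in place of the drug, and whether each population was a clone or a pool, is not given in the sources used here. PRMT1 places asymmetric dimethyl groups on arginine, and the series concerns its part in the response to replication stress.

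RNA polymerase II copies a gene from its start to its end, and the introns, which make up most of a long gene, are removed from the transcript. Platinum adducts on the template strand are known to stall the polymerase. A stalled polymerase is known to recruit transcription-coupled repair. A long gene offers more template to a single round of transcription than a short gene does. Long genes are also known to need processive elongation and to be enriched among genes for adhesion, signalling and neuronal function.

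The 274 genes spanned 300183 to 498406 bases, with a median of 370417 bases, and lay on 23 chromosomes. Their gene models, the summed exons to which reads were assigned, had a median length of 8339 bases, or 2.26% of the span, against 4126 bases over all 14491 tested genes that met the same level. In the GENCODE v29 annotation 258 were protein-coding, 13 were noncoding, and C10orf68, SPON1 and RP1-167F1.2 had no match by identifier. In untreated shScramble cells, whose libraries chose them, their mean levels ran from 1.07 to 43.7 RPKM with a median of 7.44 RPKM, against 9.99 RPKM over all genes of that level.

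Library totals recovered from the RPKM steps ran from 12289300 to 16039735 reads. PRMT1 stood at 5.90 ± 2.44 RPKM in shPRMT1 libraries with cisplatin and 19.2 ± 1.93 RPKM in shScramble libraries with cisplatin, and at 6.61 ± 1.84 RPKM in untreated shPRMT1 libraries and 21.4 ± 2.94 RPKM in untreated shScramble libraries (SD, n = 6 shPRMT1 and 2 shScramble libraries). The epithelial and lineage genes KRT8, KRT18, KRT19, EPCAM, ERBB2 and PAX8 were at 13.5 RPKM or more in every library, while WT1 reached 1.87 RPKM and MUC16 0.0455 RPKM at most. Leukocyte markers (4 genes) summed to 0.307 RPKM or less and endothelial markers (2 genes) to 0.185 RPKM or less in every library. The summed fibroblast markers DCN, LUM and PDGFRA lay at 6.27 to 20.5 RPKM in shPRMT1 cells with cisplatin, 13.4 to 26.7 RPKM in untreated shPRMT1 cells, 9.10 to 9.19 RPKM in shScramble cells with cisplatin and 11.98 to 13.9 RPKM in untreated shScramble cells. Nearly all of that sum was LUM. The epithelial list was also lower after cisplatin, at 140 to 194 RPKM in treated shPRMT1 and 182 to 220 RPKM in untreated shPRMT1 libraries, and at 167 to 180 RPKM in treated shScramble and 205 to 234 RPKM in untreated shScramble libraries. The part of these shifts in the results was not tested.

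Reads in the 274 genes took a smaller share of each cisplatin library than of any untreated library. The share was 0.985% to 1.12% of all reads in the 6 shPRMT1 libraries with cisplatin and 2.19% to 2.43% in the 6 untreated shPRMT1 libraries. In shScramble cells it was 1.47% and 1.30% with cisplatin, against 2.44% and 2.20% untreated. No cisplatin library overlapped an untreated one, and every shPRMT1 cisplatin library lay below both shScramble cisplatin libraries, as the plot of read share by library shows. RPKM is relative to the library total, and in bulk RNA less RNA per cell and fewer expressing cells cannot be told apart.

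**Figure D1:**
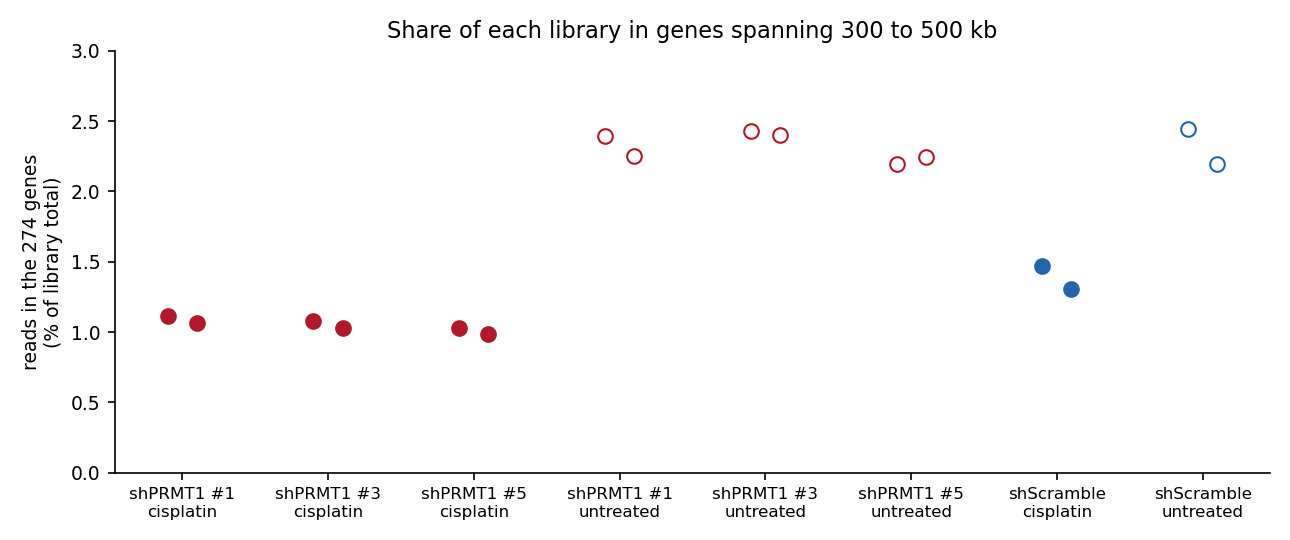
Reads in the 274 genes as a percent of all reads of the library (vertical axis), with 1 point per library, filled for cisplatin and open for untreated, in red for shPRMT1 and blue for shScramble. The filled red points lie between 0.985% and 1.12%, under the filled blue points at 1.30% and 1.47% and all open points at 2.19% or more.

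Most of the 274 genes fell after cisplatin, whether PRMT1 was depleted or not. In shPRMT1 cells, taking the mean of the 3 shRNAs, 251 genes were lower and 7 higher at a limma adjusted p under 0.05, when 23.6% of all 18149 genes tested were called lower and 30.4% higher (26.5% and 29.4% of the 14491 that met the same level). In shScramble cells 200 were lower and 12 higher, when 14.7% of all genes were called lower and 15.5% higher (17.1% and 16.1% at the same level). The median difference on the log2(RPKM + 1) scale was -1.23 in shPRMT1 cells and -0.99 in shScramble cells, whereas the median over all tested genes was 0.04 in shPRMT1 and -0.01 in shScramble cells. A fall of at least 1 log2 unit with a call was seen for 173 genes in shPRMT1 cells and 135 in shScramble cells. Falls of that size were not counted over all genes tested.

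The 2 responses come from separate libraries but from the same fit, which shares an estimate of spread. Every one of the 200 genes lower in shScramble cells was also lower in shPRMT1 cells, which is 100% of the 200 and 79.7% of the 251. As 91.6% of the 274 genes were lower in shPRMT1 cells, a large overlap would arise in any case. Another 49 genes were called lower in shPRMT1 cells and not called in shScramble cells. NEDD4L and TIAM2 were lower in shPRMT1 and higher in shScramble cells. GPR158, an orphan receptor gene, was called higher in shPRMT1 cells and not called in shScramble cells. With single shRNAs, 235 of the 274 were lower after cisplatin with #1 (13.9% of all genes), 242 with #3 (17%) and 244 with #5 (16.8%), and 231 were lower with all 3. Of those 231, 193 were also lower in shScramble cells. None of these overlaps was counted over all genes tested. Called higher were 5 genes with #1 (15.8% of all genes), 2 with #3 (19.1%) and 3 with #5 (19.3%). The scale with 1 RPKM added understates losses of genes that end near 0: with 0.1 RPKM added the medians were -1.81 in shPRMT1 and -1.22 in shScramble cells, and on recovered reads with voom weights they were -1.92 in shPRMT1 and -1.24 in shScramble cells.

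**Figure D2:**
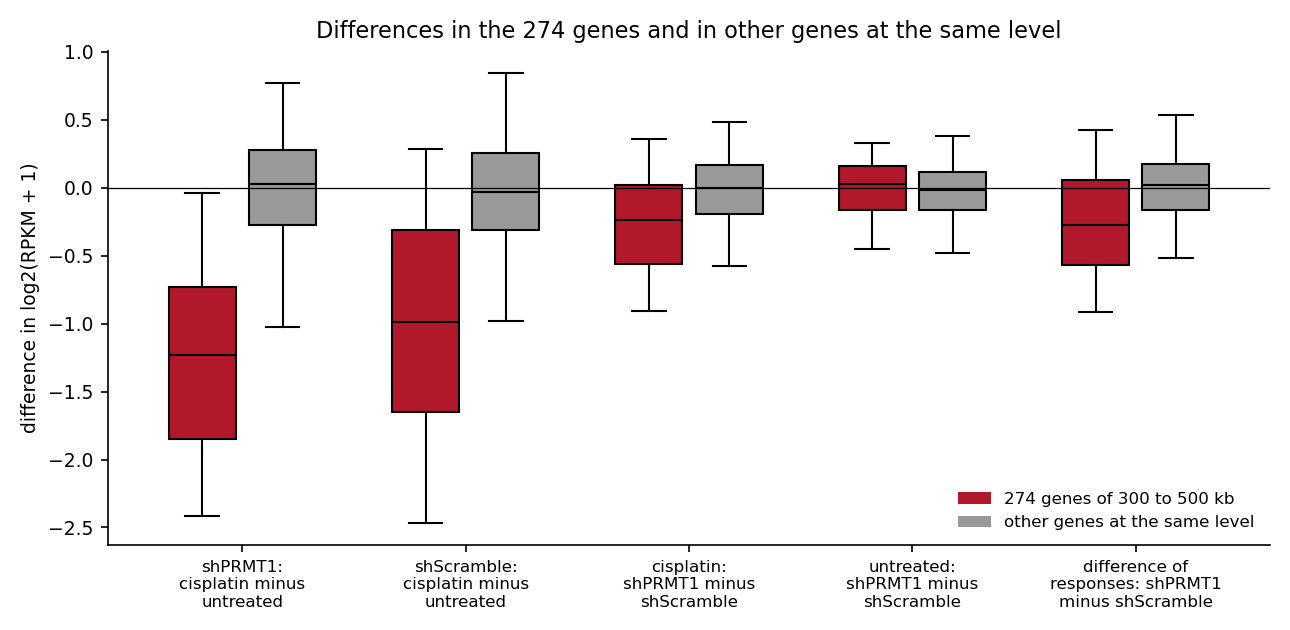
Differences in log2(RPKM + 1) for the 274 genes (red) and for the other tested genes that met the same level (grey) in the 5 comparisons, as boxes from the lower to the upper quartile with the median as a line and whiskers from the 5th to the 95th percentile. The red boxes sit at medians of -1.23 and -0.99 for cisplatin, -0.24 for shPRMT1 against shScramble with cisplatin, 0.03 untreated and -0.28 for the difference of the responses.

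Expressed as the level left after cisplatin, the median gene kept 26.9% of its untreated RPKM in shPRMT1 cells and 42.0% in shScramble cells. Under 10% was left for 46 genes in shPRMT1 cells and 51 in shScramble cells, and at least 100% was left for 13 genes in shPRMT1 and 30 in shScramble cells. Under 5% was left for 14 genes in shPRMT1 and 23 in shScramble cells. By shRNA the median level left was 29.6% with #1, 25.3% with #3 and 28.5% with #5.

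The deepest losses left almost no reads. In shScramble cells 23 genes kept less than 5% of their untreated level, with spans from 308 to 494 kb, and 3 with 2 reads or fewer are described here after their values were seen. RAPGEF4, a guanine nucleotide exchange factor for the small GTPase Rap, had 19 reads summed over 6 treated and 491 over 6 untreated shPRMT1 libraries, and 0 and 237 reads summed over the 2 treated and the 2 untreated shScramble libraries. With a floor of 3 reads over the pair of treated libraries, it was at least 81.8-fold lower in shScramble cells. OCA2, a melanosomal membrane protein gene, had 0 reads with cisplatin and 126 untreated in shScramble cells, at least 43.5-fold lower by the same floor. BBS9, a subunit of the ciliary BBSome, had 2 reads in shScramble cells with cisplatin and 422 untreated, but 200 treated and 1775 untreated in shPRMT1 cells. The floor covers counting error only, since no source used here names molecular identifiers that would tell molecules from PCR copies.

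ARL15 (ENSG00000185305.6, GRCh37 chromosome 5, 53179774 to 53606412, minus strand), an ARF-like small GTPase gene of 427 kb, had the largest fall of the genes named for shScramble cells. It measured 0.0772, 0.204 and 0.450 RPKM (lowest, median and highest of 6) in shPRMT1 libraries with cisplatin and 2.66, 8.25 and 11.1 RPKM in untreated ones. In shScramble cells it measured 0.180 and 0.105 RPKM with cisplatin and 15.1 and 11.99 RPKM untreated. Treated and untreated libraries did not overlap in either population, and the shScramble difference was -3.66 (SE 0.16, limma adjusted p = 1.57e-07). Outside the difference of the responses, genes were named for the size of a change only if the compared libraries did not overlap. A lack of overlap in the comparison that named a gene therefore adds no support. In both populations it ended at or under 0.450 RPKM, although untreated shPRMT1 libraries had started lower.

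LTBP1 (GRCh37 chromosome 2, 33172038 to 33624576, plus strand) encodes a protein that holds latent TGF-beta in the extracellular matrix. Its levels were 2.55, 4.35 and 5.34 RPKM with cisplatin and 21.9, 32.5 and 36.6 RPKM untreated in shPRMT1 libraries, and 4.14 and 3.47 RPKM with cisplatin and 36.6 and 32.5 RPKM untreated in shScramble libraries. All 8 treated libraries lay far below all 8 untreated ones, with differences of -2.62 (SE 0.07, limma adjusted p = 1.68e-09) in shPRMT1 and -2.89 (SE 0.12, limma adjusted p = 1.55e-07) in shScramble cells. The metalloprotease gene ADAM12 kept 11.6% of its level in shPRMT1 and 4.27% in shScramble cells.

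UST (GRCh37 chromosome 6, 149068463 to 149398126, plus strand), which sulfates uronic acid residues in glycosaminoglycans, had the largest fall of the genes named for shPRMT1 cells. It had 0.611, 0.677 and 0.909 RPKM with cisplatin and 9.81, 11.6 and 13.1 RPKM untreated in shPRMT1 libraries, a difference of -2.85 (SE 0.09, limma adjusted p = 2.27e-09). In shScramble cells it had 1.58 and 1.03 RPKM with cisplatin and 11.7 and 10.3 RPKM untreated, a difference of -2.38 (SE 0.15, limma adjusted p = 1.42e-06). Treated and untreated libraries were again apart in both, and the highest shPRMT1 library with cisplatin was below the lower shScramble one.

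MGMT (GRCh37 chromosome 10, 131265447 to 131566271, plus strand) encodes the protein that removes alkyl groups from the O6 position of guanine. It measured 0.639, 1.33 and 1.96 RPKM with cisplatin and 6.37, 10.7 and 13.3 RPKM untreated in shPRMT1 libraries. In shScramble cells the values were 0.728 and 0.837 RPKM with cisplatin and 8.16 and 13.9 RPKM untreated. The differences of -2.29 (SE 0.20, limma adjusted p = 3.13e-06) in shPRMT1 and -2.71 (SE 0.34, limma adjusted p = 0.000172) in shScramble cells came without overlap, and the untreated shScramble pair differed more between replicates than for the genes above.

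Further genes named for their falls covered signalling, trafficking and the cytoskeleton. In shPRMT1 cells KIF16B, a kinesin of early endosomes, fell by 2.78, LRRC16A, a regulator of actin capping protein, by 2.80, and NR3C2, the mineralocorticoid receptor, by 2.68 on the log2 scale. SCFD2, CCDC91, the formin gene FHOD3, the receptor gene ROR1 and the translation factor gene CTIF fell by 2.63 to 2.67, and FAM172A by 2.68. In shScramble cells FAM172A fell by 3.11, the actin-binding NEBL by 2.83, the RNA-binding MSI2 by 2.76, CCDC91 by 2.69, the kinase gene CAMK1D by 2.68 and the guanine nucleotide exchange factor gene VAV3 by 2.60. Each of these had treated and untreated libraries without overlap in the comparison given, which the naming rule required.

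A few genes of the same annotated span rose, although for BACH1 the longest well-supported coding transcript in GENCODE v29 spanned only 47.3 kb. Called higher in both populations were PALLD, BACH1, DLC1 and the noncoding RP11-85M11.2, UBA6-AS1 and CTD-2066L21.3. BACH1 (GRCh37 chromosome 21, 30566391 to 31003071, plus strand), a heme-regulated transcriptional repressor, measured 19.05, 27.2 and 30.5 RPKM with cisplatin and 12.9, 17.8 and 19.9 RPKM untreated in shPRMT1 libraries, and 22.6 and 22.3 RPKM with cisplatin and 13.3 and 11.1 RPKM untreated in shScramble libraries. The shScramble pairs did not overlap (0.84, SE 0.13, limma adjusted p = 0.000854), whereas in shPRMT1 cells the lowest treated library lay under the highest untreated one (0.57, SE 0.08, limma adjusted p = 9.74e-05).

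DLC1, a GTPase-activating protein, had 26.1, 27.1 and 29.95 RPKM with cisplatin and 21.1, 23.9 and 25.2 RPKM untreated in shPRMT1 libraries, and 32.4 and 31.5 RPKM with cisplatin and 22.1 and 19.95 RPKM untreated in shScramble libraries. Neither population overlapped, and the difference was 0.22 (SE 0.04, limma adjusted p = 0.000521) in shPRMT1 and 0.58 (SE 0.07, limma adjusted p = 8.1e-05) in shScramble cells. PALLD, which crosslinks actin filaments, rose by 0.19 in shPRMT1 and 0.45 in shScramble cells. RP11-85M11.2, a noncoding gene of 448 kb, rose by 0.59 in shPRMT1 and 0.98 in shScramble cells.

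The noncoding gene PVT1, which lies beside MYC, was called higher in shScramble cells and not called in shPRMT1 cells. It had 1.79, 2.74 and 3.02 RPKM with cisplatin and 2.19, 2.58 and 3.14 RPKM untreated in shPRMT1 libraries, which overlapped, and 4.42 and 3.73 RPKM with cisplatin and 1.81 and 1.82 RPKM untreated in shScramble libraries. The difference between these responses passed the test (-0.88, SE 0.13, limma adjusted p = 0.00542). In shScramble cells 6 of the 12 higher calls and 173 of the 200 lower calls held without any 1 of the 16 libraries, while in shPRMT1 cells 7 of 7 and 249 of 251 did. The 12 became 7 without shScramble cisplatin replicate 1 or without shScramble untreated replicate 2. CTD-2066L21.3, SGMS1, RP11-114H23.1 and UBA6-AS1 were among those that lost the call without at least 1 library. The strand was not recorded, so reads of these noncoding genes and of genes that overlap them cannot be told apart.

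Promoter sequence was read for 219 of the 274 genes that matched a RefSeq start on GRCh38.p14. The 120 bases before the RefSeq start are shown for a pair of named genes that fell far and a pair that rose. These are the opposite responses at this annotated span. ARL15 (GRCh38.p14 chr5:54310574-54310693, minus strand) and LTBP1 (chr2:32946833-32946952, plus strand) fell, while BACH1 (chr21:29305084-29305203, plus strand) and PALLD (chr4:168496932-168497051, plus strand) rose. Capitals mark the motifs searched on both strands: the cyclic AMP response element TGACGTCA, the AP-1 site TGANTCA, the GC box GGGCGG and the CCAAT box CCAAT. No marked match overlaps another.
ARL15: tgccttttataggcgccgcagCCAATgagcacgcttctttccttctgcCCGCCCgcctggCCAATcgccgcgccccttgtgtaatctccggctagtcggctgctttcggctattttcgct
LTBP1: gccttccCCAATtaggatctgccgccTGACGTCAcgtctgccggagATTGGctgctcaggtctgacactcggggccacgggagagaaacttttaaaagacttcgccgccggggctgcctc
BACH1: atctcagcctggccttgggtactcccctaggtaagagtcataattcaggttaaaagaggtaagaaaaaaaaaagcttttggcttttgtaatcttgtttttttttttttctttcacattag
PALLD: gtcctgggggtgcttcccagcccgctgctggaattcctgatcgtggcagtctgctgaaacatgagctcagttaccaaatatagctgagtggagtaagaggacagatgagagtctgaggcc
ARL15 shows a GC box on the reverse strand between matches to CCAAT, LTBP1 shows TGACGTCA between matches to CCAAT, and the windows of BACH1 and PALLD hold none of the letters searched. RefSeq gives 1 start per gene, and a gene with several starts may use another in these cells. BACH1 has an annotated span of 437 kb, but its longest supported coding transcript in GENCODE v29 spans 47.3 kb. The RefSeq start of BACH1 may therefore lie inside the annotated span. The window shown for BACH1 may then not be promoter sequence, so its lack of motifs cannot be compared with the windows of the genes that fell.

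Over 250 bases before to 50 after the start, a GC box was found in 63.5% of the 219 promoters, against 44.6% of 27305 promoters of all genes, and the median GC content was 65.7%, against 58.3%. CCAAT was found in 32.0%, against 35.7%, TGANTCA in 3.65%, against 7.76%, and TGACGTCA in 2.74%, against 1.98%. Of 161 promoters of genes lower in both populations 62.7% held a GC box, and of 58 promoters of genes not lower in shScramble cells 65.5% did. CCAAT was found in 35.4% of the 161 and 22.4% of the 58. The 27305 promoters were not limited to genes that met the level, unlike the 219, so the sets differ in expression too. These are counts of letters, not of bound sites, and were not tested.

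Called in neither population after cisplatin were 12 genes, named after their values were seen: STAG2, PRKAG2, MKLN1, SHROOM3, AEBP2, GAREM, C9orf3, HSD17B12, DST, OXR1, MRPS22 and FTX. STAG2, a cohesin subunit, measured 32.3, 39.5 and 43.5 RPKM with cisplatin and 35.6, 37.9 and 42.9 RPKM untreated in shPRMT1 libraries, and 40.03 and 39.3 RPKM with cisplatin and 35.5 and 32.3 RPKM untreated in shScramble libraries. The shPRMT1 ranges overlapped widely and their difference was 0.00 (SE 0.08, limma adjusted p = 0.979). The shScramble pairs did not overlap, at a difference of 0.22 (SE 0.13, limma adjusted p = 0.239). A miss of the threshold does not show that these genes stayed level.

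**Figure D3:**
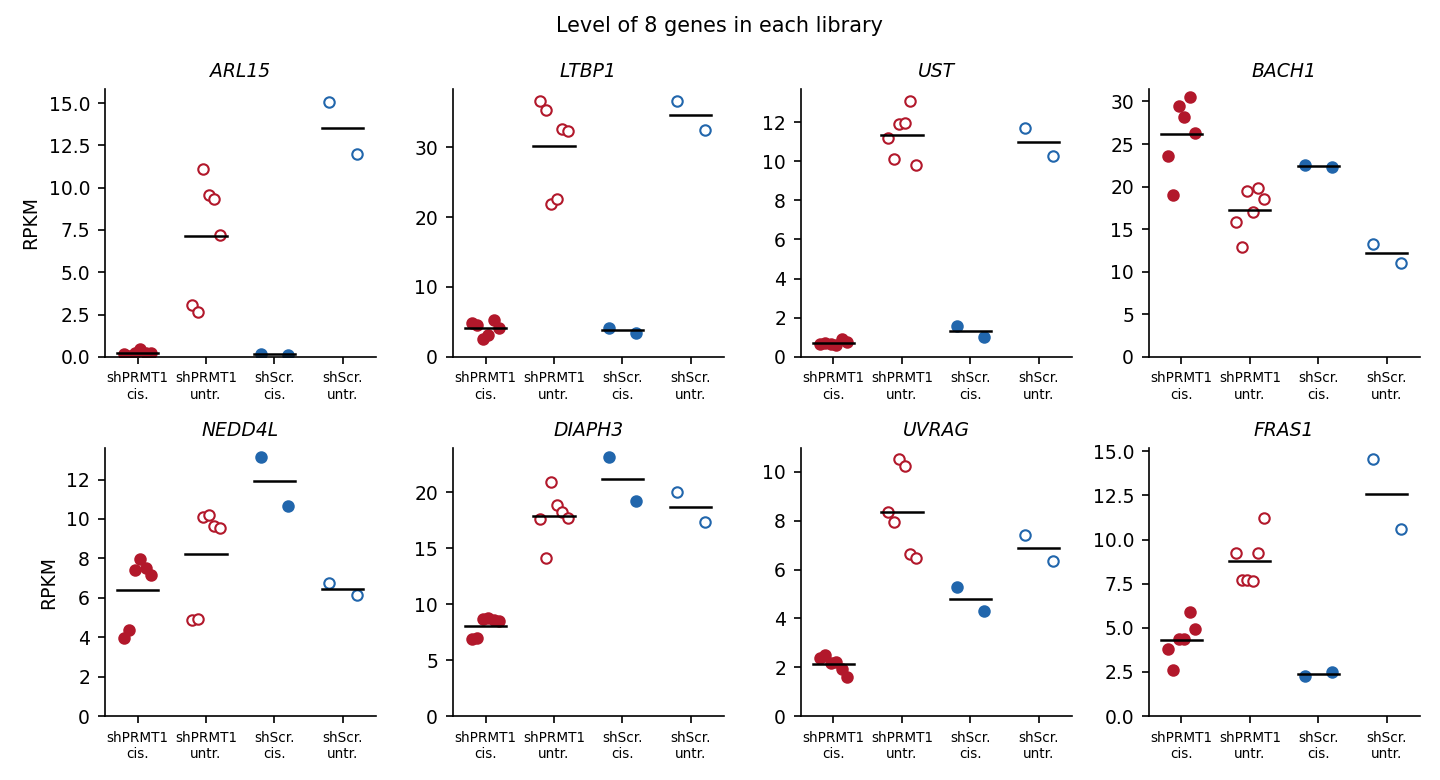
RPKM of 8 genes in each library (points, filled for cisplatin and open for untreated, red for shPRMT1 and blue for shScramble) with the group mean as a line. ARL15, LTBP1 and UST are low in all treated libraries, BACH1 is higher with cisplatin, NEDD4L and DIAPH3 fall with cisplatin only among the red points, and FRAS1 keeps more of its level in the red points.

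The position of these genes at the long end of the genome was compared with shorter genes that met the same level. The median cisplatin difference in shPRMT1 cells was 0.09 for 9957 genes under 50 kb, -0.03 for 2168 genes of 50 to 100 kb, -0.26 for 1515 genes of 100 to 200 kb and -0.77 for 447 genes of 200 to 300 kb. It was -1.23 at 300 to 500 kb, with the 4 left-out genes kept, and -1.41 for 123 genes over 500 kb. In shScramble cells the same classes gave -0.00, 0.00, -0.13, -0.44, -0.996 and -1.39. The share called lower ran from 16% under 50 kb to 91.7% at 300 to 500 kb and 87.8% above in shPRMT1 cells, and from 11.4% to 73.0% and 77.2% in shScramble cells. The medians fell from class to class in both populations, except between the 2 shortest classes in shScramble cells. The share called lower was smaller over 500 kb than at 300 to 500 kb in shPRMT1 cells and larger in shScramble cells.

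**Figure D4:**
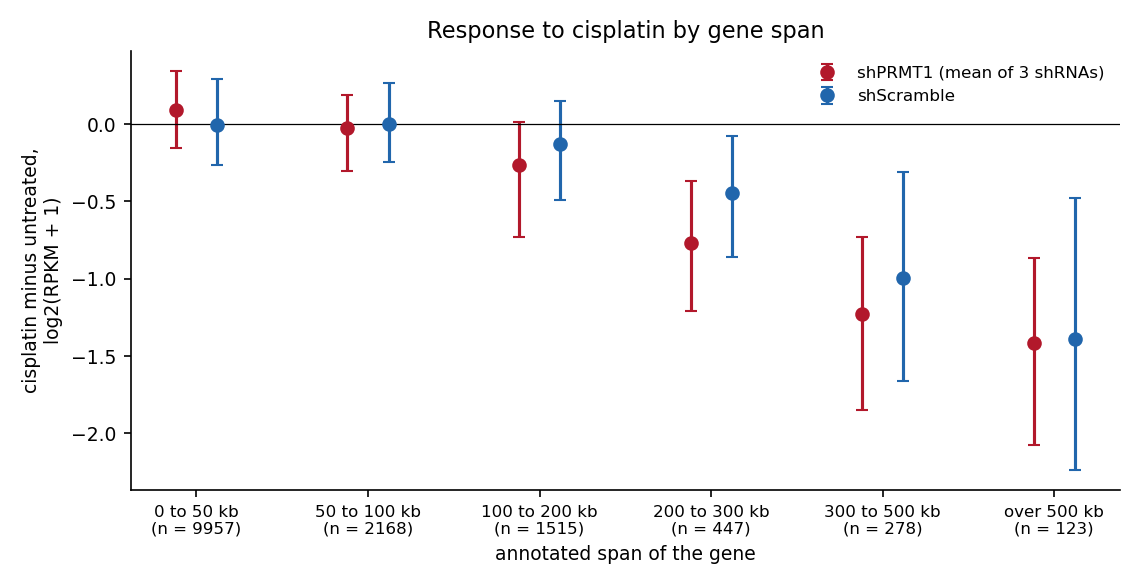
Cisplatin minus untreated in log2(RPKM + 1) by annotated span, for tested genes that met the same level (n under each class), as the median with bars from the lower to the upper quartile, red for shPRMT1 and blue for shScramble. The medians lie near 0 up to 100 kb and reach -1.23 and -0.996 at 300 to 500 kb.

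Within the 274 genes the annotated span itself ordered the response weakly, with a Spearman correlation across genes of -0.19 in shPRMT1 and -0.25 in shScramble cells (274 genes, which share libraries and are not independent replicates). Neither the gene model length (0.10 in both) nor the untreated shScramble level (-0.07 and 0.11) ordered it more. A closer measure, chosen after the values were seen, was the span of the shortest well-supported coding transcript of each gene in GENCODE v29, which 245 genes had. Its correlation with the response was -0.40 in both populations.

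For 32 genes with such a transcript under 50 kb the median difference was -0.61 in shPRMT1 and -0.28 in shScramble cells. For 106 genes whose shortest transcript was 300 kb or more it was -1.62 in shPRMT1 and -1.27 in shScramble cells. The gene spans of these sets were alike, at medians of 352 and 385 kb. Called lower were 78.1% of the first set and 97.2% of the second in shPRMT1 cells, and 43.8% and 85.8% in shScramble cells. BACH1, DLC1, SGMS1, TIAM2 and MYO5B, all called higher in shScramble cells, and DST, called in neither, had a transcript under 50 kb. For BACH1 the longest such transcript was also short, at 47.3 kb. The longest was 432 kb for DLC1, 318 kb for SGMS1, 108 kb for TIAM2, 372 kb for MYO5B and 185 kb for DST. In shScramble cells 5 of the 32 genes were called higher and 14 lower. Among the 32, NCALD (shortest transcript 31.5 kb) was 45.1-fold and LDLRAD4 (3.96 kb) 22.2-fold lower there by reads. PALLD and NEDD4L, called higher in shScramble cells, had shortest transcripts of 96.4 and 175 kb. The annotation does not tell which transcript these cells use.

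**Figure D5:**
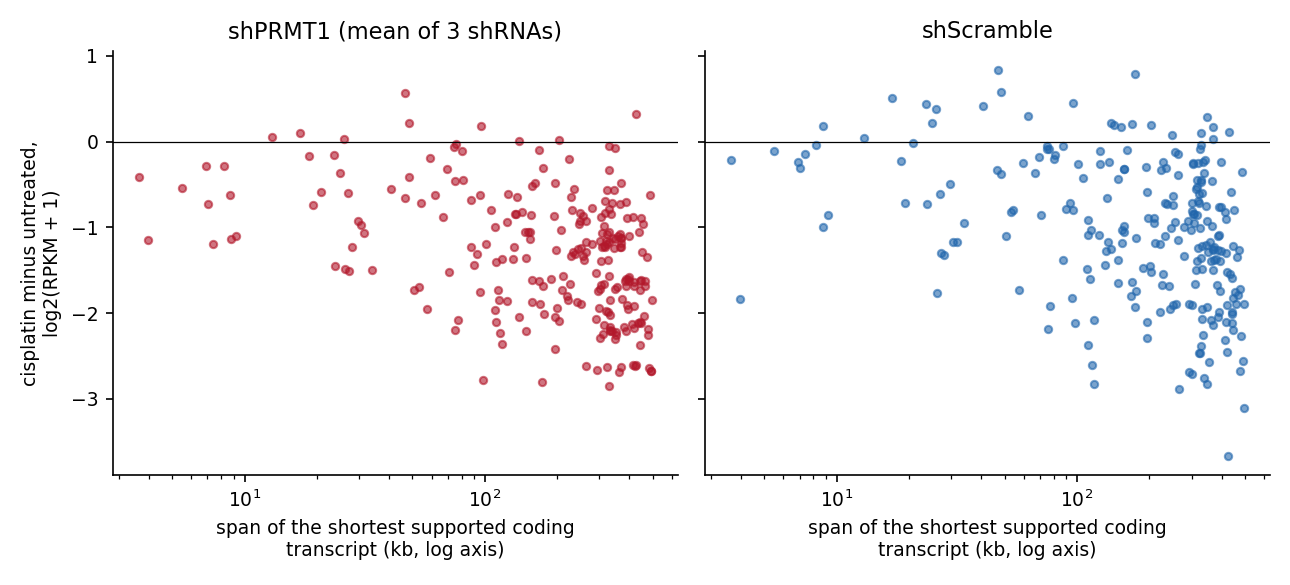
Cisplatin minus untreated in log2(RPKM + 1) against the span of the shortest well-supported coding transcript (kb, log axis), with 1 point for each of 245 genes, in shPRMT1 cells (left) and shScramble cells (right). Points run lower to the right, with medians of -0.61 and -0.28 under 50 kb and -1.62 and -1.27 at 300 kb or more.

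Short genes that lie inside the 274 genes gave another comparison at the same chromosomal places. There were 62 tested genes under 50 kb that met the level inside 48 of them. Their median cisplatin difference was -0.02 in shPRMT1 and -0.23 in shScramble cells, against 0.09 in shPRMT1 and -0.00 in shScramble cells for 9895 other genes under 50 kb. Called lower were 15 of 62 (24.2%) in shPRMT1 cells and 12 (19.4%) in shScramble cells, and called higher were 8 (12.9%) in shPRMT1 and 5 (8.06%) in shScramble cells. Of the other genes under 50 kb, 15.9% were lower and 35.1% higher in shPRMT1 cells, and 11.3% lower and 17.2% higher in shScramble cells. More nested genes were thus called lower than higher in both populations, and the difference from the other short genes was not tested. Examples of both directions were chosen after their values were seen. A gene that rose in shPRMT1 cells was NDNL2, a gene of 1682 bases inside FAM189A1, at 38.8 RPKM with cisplatin and 26.7 RPKM untreated in shPRMT1 cells (mean of 6 each), and at 28.6 and 24.7 RPKM in shScramble cells (mean of 2 each). Its host differed by -2.34 in shPRMT1 and -2.51 in shScramble cells. ZNF860, inside OSBPL10 on the opposite strand, rose by 0.90 in shPRMT1 and 0.61 in shScramble cells, where its host fell by 1.07 in shPRMT1 and 0.72 in shScramble cells. AC068134.10, inside DIS3L2, fell by 1.14 in shPRMT1 and 1.02 in shScramble cells, where its host differed by -1.89 and -1.63. RP11-62F24.2, inside BNC2, fell by 0.64 in shPRMT1 and 1.34 in shScramble cells, where its host differed by -1.29 and -0.79. The libraries do not mark strand, so on either strand host reads cannot be told apart from reads of the nested gene. The 62 also include pseudogenes, such as NPM1P27 and EEF1A1P4, and very short entries, such as MIR4263 of 84 bases. Whether their reads came from a parent gene elsewhere or from the host was not tested.

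Among the 274 genes, 95 overlapped another gene with a mean of 1 RPKM or more and 179 did not. Restricting the counts to the 179 gave 95.5% lower in shPRMT1 and 74.3% in shScramble cells, against 91.6% and 73.0% of all 274. Choosing genes of the same span by the untreated shPRMT1 level gave 257 genes, of which 91.4% were lower in shPRMT1 and 72.0% in shScramble cells.

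Groups by role were described from lists chosen with earlier results of these data known, and 170 of the 274 genes belonged to one. In each of the 6 lists most genes were called lower in both populations. Of all 274 genes 91.6% were called lower in shPRMT1 and 73.0% in shScramble cells, and of all genes tested 23.6% and 14.7%. Of 26 transcription, chromatin and RNA-binding factors, 25 were lower and 1 (BACH1) higher in shPRMT1 cells, and 19 lower and 1 higher in shScramble cells, with medians of -1.30 and -0.91. The histone demethylase gene KDM4C kept 9.93% in shPRMT1 and 12.7% in shScramble cells, and SND1, which encodes a nuclease-like coactivator, kept 20.3% in shPRMT1 and 30.7% in shScramble cells.

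Of 18 genes for ubiquitin, autophagy, trafficking and genome maintenance, 17 were lower in shPRMT1 and 15 in shScramble cells, with medians of -1.67 and -1.27. SCFD2 kept 8.25% in shPRMT1 and 8.51% in shScramble cells, and BTBD9, a BTB-domain gene, 6.56% in shPRMT1 and 6.63% in shScramble cells. Of 26 glycan, matrix, metabolic and mitochondrial genes, 25 were lower in shPRMT1 and 23 in shScramble cells, with medians of -1.45 and -1.49, so this list lay as low in shScramble as in shPRMT1 cells. Of 24 receptors, channels, transporters and lipid flippases, 23 were lower in shPRMT1 and 20 in shScramble cells, with medians of -1.28 and -1.17. The zinc transporter gene SLC39A11 kept 10.5% in shPRMT1 and 3.98% in shScramble cells, and ITPR2, a calcium release channel of the endoplasmic reticulum, 12.6% in shPRMT1 and 7.70% in shScramble cells.

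Of 41 kinases, phosphatases, phosphodiesterases and small GTPase regulators, 39 were lower in shPRMT1 and 26 in shScramble cells, with medians of -1.12 and -0.71. RALGPS1, an exchange factor for Ral, kept 4.14% in shPRMT1 and 2.68% in shScramble cells. Of 35 adhesion, polarity and cytoskeleton genes, 30 were lower in shPRMT1 and 20 in shScramble cells, with medians of -1.10 and -0.73. Of the 13 noncoding genes, in or outside these lists, 7 were lower and 3 higher in shPRMT1 cells and 6 lower and 5 higher in shScramble cells, at medians of -0.23 and -0.20. Among all genes tested, 23.6% were called lower and 30.4% higher in shPRMT1 cells, and 14.7% and 15.5% in shScramble cells. The difference between the lists was not tested.

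Genes of polymerase II elongation and transcription-coupled repair, none of which spanned over 300 kb, were read from a separate list. Of 69 measured, 31 were higher and 4 lower with cisplatin in shPRMT1 cells, and 15 higher and 2 lower in shScramble cells, with medians of 0.17 and 0.08. The higher calls are 44.9% of the list in shPRMT1 and 21.7% in shScramble cells, when 30.4% and 15.5% of all genes were called higher. The lower calls are 5.8% of the list in shPRMT1 and 2.9% in shScramble cells, when 23.6% and 14.7% of all genes were called lower. POLR2A, the largest polymerase II subunit, rose to 58.4 ± 4.27 RPKM with cisplatin in shPRMT1 cells, against 33.5 ± 2.78 RPKM untreated, and to 45.3 ± 0.611 RPKM in shScramble cells, against 32.1 ± 1.60 RPKM untreated (SD, n = 6 and 2 per condition). The elongation factor gene EAF1 rose by 0.85 in shPRMT1 and 0.76 in shScramble cells, and NEDD4, a ubiquitin ligase known to act on stalled polymerase, by 0.45 in shPRMT1 and 1.07 in shScramble cells. SUPT16H, a subunit of the histone chaperone FACT, rose by 0.50 in shPRMT1 cells and was not called in shScramble cells (0.19, limma adjusted p = 0.124). Its untreated shPRMT1 #3 libraries were low, at 20.5 and 19.5 RPKM, against 33.5 to 39.9 RPKM in the other untreated libraries. IWS1 rose by 0.28 in shPRMT1 and 0.44 in shScramble cells. MLLT3, of the super elongation complex and with 281 kb the longest of the list, fell by 1.13 in shPRMT1 and 0.69 in shScramble cells.

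PRMT1 knockdown without drug changed few of the 274 genes. Untreated shPRMT1 libraries had 16 genes lower and 7 higher than untreated shScramble libraries, when 3.83% of all genes were called lower and 4.41% higher (4.73% and 4.25% at the same level). The 16 lower genes are 5.84% of the 274, close to these shares, and the median difference was 0.03. Without shScramble untreated replicate 1 the counts were 4 lower and 2 higher, and without its replicate 2 they were 6 and 2. With the replicate number as a block, 39 were lower and 30 higher, when 1749 of all genes were lower and 1939 higher, and with only the compared groups in the fit 6 and 2. By shRNA 24 genes were lower with #1 (4.66% of all genes), 13 with #3 (3.93%) and 41 with #5 (6.51%), and 19 (4.43%), 16 (4.15%) and 12 (6.91%) were higher.

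NLGN4X, a neuronal adhesion gene on chromosome X, had 1.49, 1.93 and 2.30 RPKM in untreated shPRMT1 libraries and 4.08 and 3.93 RPKM in untreated shScramble libraries. These did not overlap, as the naming rule required, and the difference was -0.80 (SE 0.09, limma adjusted p = 0.000606). CNIH3, an auxiliary protein of AMPA receptors, had 3.01, 3.72 and 8.02 RPKM in untreated shPRMT1 and 2.26 and 2.12 RPKM in untreated shScramble libraries, also without overlap (0.77, SE 0.09, limma adjusted p = 0.000736), and its 2 highest values both came from shPRMT1 #1. ANO10, of the anoctamin family, had 13.6, 14.9 and 15.2 RPKM in untreated shPRMT1 and 10.4 and 10.4 RPKM in untreated shScramble libraries (0.45, SE 0.07, limma adjusted p = 0.00329). With ARL15 and SAMD12, these were the genes whose call held without any 1 of the 16 libraries. TRPC6, CAMK1D, AEBP2 and BNC2 were lower and GULP1 and PCNXL2 higher in shPRMT1 libraries with limma adjusted p of 0.0125 to 0.048, and each lost the call without at least 1 library.

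With cisplatin, many of the genes stood lower in shPRMT1 cells than in shScramble cells. The counts were 118 lower and 15 higher, when 9.36% of all genes were called lower and 10.4% higher (10.9% and 9.71% at the same level), and the median difference was -0.24. By shRNA 72 genes were lower with #1 (5.92% of all genes), 101 with #3 (6.84%) and 116 with #5 (10.4%). Higher were 5 with #1 (4.99%), 9 with #3 (7.04%) and 20 with #5 (12.1%). Without shScramble cisplatin replicate 1 the averaged counts were 57 lower and 5 higher, and on recovered reads the median was -0.41.

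JAZF1, a zinc finger gene, had 0.648, 1.60 and 2.23 RPKM in shPRMT1 libraries with cisplatin and 6.36 and 4.24 RPKM in shScramble libraries with cisplatin. There was no overlap, as the naming rule required, and the difference was -1.38 (SE 0.13, limma adjusted p = 0.000141). PDE7B, a cyclic AMP phosphodiesterase, had 1.17, 2.39 and 3.22 RPKM in shPRMT1 and 7.38 and 5.98 RPKM in shScramble libraries with cisplatin, again without overlap (-1.30, SE 0.12, limma adjusted p = 9.54e-05). PDE7B was already lower without drug (-0.48, SE 0.12, limma adjusted p = 0.0315), whereas JAZF1 did not pass there (adjusted p = 0.067 in limma).

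Lower genes named in this comparison also included NHS at -1.22, the nuclear factor TOX at -1.12, APBB2, which binds the amyloid precursor protein, at -1.06, and the chondroitin sulfotransferase gene CHST11 at -0.99. SIPA1L1, a Rap GTPase-activating protein, was at -0.94, and MAML2, a coactivator of Notch, at -0.93. Of the 15 called higher, FRAS1 (0.63), MYO1D (0.53) and 1 noncoding gene met the rule for named genes. FRAS1 lost this call without shScramble cisplatin replicate 1 (limma adjusted p = 0.119) or replicate 2 (0.0632), and the noncoding gene lost it without either of them and under other settings. By role, against 43.1% of the 274 genes and 9.36% of all genes called lower, the lower counts were 19 of 26 transcription, chromatin and RNA-binding factors (median -0.55), 21 of 35 adhesion, polarity and cytoskeleton genes (-0.43) and 10 of 18 genes for ubiquitin, autophagy, trafficking and genome maintenance (-0.37). They were 18 of 41 kinases, phosphatases, phosphodiesterases and small GTPase regulators (-0.29), 10 of 26 glycan, matrix, metabolic and mitochondrial genes (-0.19) and 6 of 24 receptors, channels, transporters and lipid flippases (0.04). Called higher were 1, 2, 1, 0, 3 and 3 genes of the 6 lists as listed. Differences between these lists were not tested.

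The difference between the cisplatin responses, shPRMT1 minus shScramble, tests whether a gene's response was lower or higher in depleted cells. It was called lower for 66 genes and higher for 8, when 3.11% of all genes were called lower and 2.08% higher (3.29% and 2.01% at the same level), and its median over the 274 genes was -0.28 against 0.02 over all genes tested. All 16 libraries enter this comparison, and it shares them with the comparisons above. With the replicate number as a block 105 genes were lower and 12 higher, when 1412 of all 18149 genes were lower and 1125 higher. Without shScramble cisplatin replicate 1 the counts were 11 and 1, without shScramble untreated replicate 2 11 and 6, without shScramble untreated replicate 1 39 and 1, without shPRMT1 #3 untreated replicate 1 41 and 6, and without shPRMT1 #3 cisplatin replicate 2 43 and 6.

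By single shRNA the difference was lower for 17 genes with #1, 51 with #3 and 37 with #5, when 0.975%, 1.96% and 2.18% of all genes were called lower. Higher were 5 genes with #1 (0.49% of all genes), 3 with #3 (1.25%) and 11 with #5 (1.32%). The medians were -0.25, -0.35 and -0.25. Span classes at the same level gave averaged medians of 0.07 under 50 kb, -0.06, -0.15, -0.29 at 200 to 300 kb, -0.28 at 300 to 500 kb and -0.02 over 500 kb. Classes by shortest transcript ran from -0.18 to -0.33 with no order, at -0.25 under 50 kb and -0.30 at 300 kb or more.

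DIAPH3 (ENSG00000139734.13, GRCh37 chromosome 13, 60239716 to 60738121, minus strand), a formin that nucleates actin filaments, gave the lowest difference of the named genes. It had 6.91, 8.51 and 8.72 RPKM with cisplatin and 14.1, 17.95 and 20.9 RPKM untreated in shPRMT1 libraries. In shScramble cells it had 23.1 and 19.2 RPKM with cisplatin and 20.01 and 17.3 RPKM untreated. The shPRMT1 groups were apart and the shScramble groups overlapped, and the difference of the responses was -1.23 (SE 0.14, limma adjusted p = 0.00131). It was -1.24 with #1, -1.28 with #3 and -1.17 with #5.

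UVRAG (GRCh37 chromosome 11, 75526211 to 75854239, plus strand), a partner of Beclin 1 in autophagy, had 1.59, 2.19 and 2.49 RPKM with cisplatin and 6.47, 8.14 and 10.5 RPKM untreated in shPRMT1 libraries. It had 5.29 and 4.30 RPKM with cisplatin and 7.40 and 6.34 RPKM untreated in shScramble libraries. Neither population overlapped, but 25.5% was left in shPRMT1 and 69.8% in shScramble cells, and the difference was -1.12 (SE 0.13, limma adjusted p = 0.00143).

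The kinase gene CAMK2D kept 34.6% of its level in shPRMT1 and 82.95% in shScramble cells (-1.14, SE 0.13, limma adjusted p = 0.00186). LIMCH1, an activator of non-muscle myosin, kept 40.4% in shPRMT1 and 90.5% in shScramble cells (-1.06, SE 0.12, limma adjusted p = 0.00144). The Ras GTPase-activating protein gene RASAL2 kept 53.7% in shPRMT1 and 116% in shScramble cells. PLCB4, a phospholipase C, TASP1, a protease that cleaves MLL, and RP11-114H23.1 were also named, at -1.03, -1.001 and -1.02, and these 3 lost the call without at least 1 library. Calls that held without any 1 of the 16 libraries included those of CAMK2D, CNIH3, DIAPH3, LIMCH1, NEDD4L, PVT1, RASAL2, SPATA5, TIAM2 and UVRAG as lower and MYO1D as higher.

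NEDD4L (GRCh37 chromosome 18, 55711598 to 56068772, plus strand), a ubiquitin ligase that limits epithelial sodium channels, moved in opposite directions. It had 3.98, 7.28 and 7.96 RPKM with cisplatin and 4.89, 9.61 and 10.2 RPKM untreated in shPRMT1 libraries, and 13.1 and 10.7 RPKM with cisplatin and 6.73 and 6.15 RPKM untreated in shScramble libraries. The shPRMT1 ranges overlapped, with shPRMT1 #1 lower than the other two in both conditions, and within each shRNA both treated libraries lay below both untreated ones. The response was -0.30 (SE 0.06, limma adjusted p = 0.00124) in shPRMT1 and 0.79 (SE 0.10, limma adjusted p = 0.000193) in shScramble cells. TIAM2, an exchange factor for Rac chosen after its values were seen, had 2.21, 2.42 and 2.95 RPKM with cisplatin and 3.91, 4.15 and 4.43 RPKM untreated in shPRMT1 libraries, and 6.43 and 4.79 RPKM with cisplatin and 4.01 and 3.86 RPKM untreated in shScramble libraries. Its groups did not overlap in either population, and the response was -0.56 (SE 0.07, limma adjusted p = 3.98e-05) in shPRMT1 and 0.41 (SE 0.12, limma adjusted p = 0.021) in shScramble cells.

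Some genes fell less in shPRMT1 cells. FRAS1 (GRCh37 chromosome 4, 78978723 to 79465423, plus strand), a protein of the basement membrane, had 2.62, 4.35 and 5.89 RPKM with cisplatin and 7.63, 8.47 and 11.2 RPKM untreated in shPRMT1 libraries, and 2.28 and 2.49 RPKM with cisplatin and 14.6 and 10.6 RPKM untreated in shScramble libraries. No groups overlapped within a population, and the difference of 1.10 (SE 0.20, limma adjusted p = 0.0136) lost its call without shScramble cisplatin replicate 1 (adjusted p = 0.0888 in limma) or shScramble untreated replicate 1 (0.0618). MYO1D, an unconventional myosin, had 5.88, 6.39 and 8.13 RPKM with cisplatin in shPRMT1 and 4.33 and 4.28 RPKM with cisplatin in shScramble libraries, without overlap, and a difference of 0.71 (SE 0.09, limma adjusted p = 0.00197).

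ARL15, SAMD12, LDLRAD4, an inhibitor of TGF-beta signalling, MSI2 and NLGN4X were also called higher in the difference, at 0.50 to 1.06. All 5 were at low levels with cisplatin, the highest library reaching 0.978 RPKM for MSI2 and 0.119 RPKM for SAMD12, and each lost its call without at least 1 library. On recovered reads NLGN4X turned to -0.68 and, with 0.1 RPKM added, to -0.11, while ARL15 and SAMD12 lost their calls on reads (limma adjusted p = 0.114 and 0.493). NLGN4X thus changed direction with the scale.

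At the limits of the rule, HSD17B12 and COBL lay just inside 300 kb, at cisplatin differences of -0.06 and -0.96 in shPRMT1 and -0.09 and -1.004 in shScramble cells, while MIR4435-1HG and JMJD1C just outside had -0.47 and 0.33 in shPRMT1 and -0.01 and 0.44 in shScramble cells. DIAPH3 and CACNA2D1 lay just inside 500 kb, at -1.06 and -1.61 in shPRMT1 and 0.17 and -1.39 in shScramble cells, and DNAH14 and CPQ just outside, at -0.42 and -0.99 in shPRMT1 and -0.14 and -1.34 in shScramble cells. C10orf68 and NOS1AP just passed the level of 1 RPKM, at -0.83 and -0.72 in shPRMT1 and -0.90 and -0.31 in shScramble cells. KIF6 and COX10-AS1 just missed it, at -1.05 and 0.26 in shPRMT1 and -0.93 and 0.14 in shScramble cells.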

How the data were processed

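Per the file headers, the authors deposited RPKM for 57820 genes in 16 libraries, on a linear scale. HISAT2, DESeq2 and the builds GRCh37 and mm9 appear in the submitters' processing notes, with neither versions nor roles. The identifiers and coordinates are human and are printed as GRCh37. How reads were counted, with which annotation and strand setting, and whether duplicates were kept is not given in the sources used here. TruSeq RNA v2 libraries, named in the labels' protocols, do not mark strand.

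Whole reads were recovered from the RPKM steps for 40649 of 40649 genes above 0 (100% within 0.01 reads). The deepest library (16039735 reads) had 1.31 times the total of the shallowest (12289300), and a floor of 3 reads in a model of 2 kb corresponds to 0.0935 to 0.122 RPKM. The most covered gene of each library reached 1.75 to 1.84 reads per base of model, a narrower range than that of the totals. The 274 genes reached 0.643 at most. Whether a limit on reads per base compressed high levels and their changes was not tested.

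The 18149 genes with 1 RPKM or more in 2 libraries were tested on log2(RPKM + 1) with limma 3.58.1 (trended prior, R 4.3.3), in a model of 8 group means over 16 libraries. A gene was called at a Benjamini-Hochberg adjusted p under 0.05 over all genes tested. The design was written for RPKM and kept. The 5 comparisons were cisplatin against untreated in shPRMT1 (mean of 3 shRNAs) and in shScramble cells, shPRMT1 against shScramble with and without cisplatin, and the difference of the responses. Each shRNA was also compared alone. The procedure was tested on simulated data. Those simulated replicates were independent and carried no shared effect of the replicate number, so they do not cover the pairing described next.

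Replicate numbers pair the samples: deviations of same-numbered libraries correlated at 0.296 to 0.699 in 28 of 28 pairs of groups, and component 2 separated the numbers in 8 of 8 groups. The main fit did not use this pairing, and a fit with the replicate number as a block was run as an alternative. Replicates are labelled biological, with no word on how cultures were kept apart. In the main fit each group has its own mean, so p-values measure only the spread between replicate libraries within groups. Differences between the shRNAs do not enter the SE or p-values of the averaged shPRMT1 comparisons. Replicate pairs differed by more than sampling noise (chi-square per degree of freedom 3.58 to 21.9).

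The genes, role lists and tests were chosen with earlier results of these data known. Named genes were the 10 largest called decreases and increases per comparison with libraries of both sides not overlapping and a mean of 3 RPKM or more on the higher side, and up to 2 called genes per role list with the lowest adjusted p. The genes nearest each limit of the rule, PRMT1 and up to 4 elongation genes per cisplatin comparison were added. Transcript spans came from GENCODE v29 by gene identifier, and promoters from RefSeq on GRCh38.p14. Alternatives were another pseudocount, filter, scaling, model, test and gene rule, and leaving out each library. A gene that the rule named is not reported here.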

Additional observations from a re-analysis of the deposited data

Results flagged for a closer look

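The cisplatin response differed between shPRMT1 and shScramble cells by the test of the difference itself for 66 genes called lower and 8 called higher. Of all genes tested 3.11% were called lower and 2.08% higher. Most of the calls among the 274 genes were lost when some single library was left out. Among genes with a lower response in shPRMT1 than in shScramble cells, the log2 difference was -1.23 for DIAPH3, -1.14 for CAMK2D, -1.12 for UVRAG and -1.09 for NEDD4L. It was -1.06 for LIMCH1, -1.03 for PLCB4, -1.02 for RP11-114H23.1, -1.02 for RASAL2 and -1.001 for TASP1. The calls of PLCB4, RP11-114H23.1 and TASP1 were lost when some single library was left out. For NEDD4L and RP11-114H23.1 the response in shScramble cells was a called rise (0.79 and 0.79). Among the named genes with a higher response in shPRMT1 cells it was 1.10 for FRAS1, 1.06 for ARL15, 0.71 for MYO1D, 0.70 for SAMD12, 0.69 for LDLRAD4, 0.55 for MSI2 and 0.50 for NLGN4X. Only MYO1D among these kept its call whichever library was left out. NLGN4X changed direction on other scales, to -0.11 with 0.1 RPKM added and -0.68 on recovered reads. The groups of 2 libraries are too small for a test of single outlying samples.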

How the results depend on the processing

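The counts of genes lower after cisplatin stayed within 1.5 times under every alternative run, and ran from 249 to 251 in shPRMT1 and 177 to 203 in shScramble cells over the 16 fits without 1 library. Calls held in all 16 fits for 249 lower and 7 higher genes in shPRMT1 and for 173 and 6 in shScramble cells, for 56 and 4 in shPRMT1 against shScramble with cisplatin, for 3 and 2 untreated, and for 11 and 1 in the difference of the responses. Without 1 library, genes called higher were 7 to 7 in shPRMT1 and 7 to 14 in shScramble cells after cisplatin. For shPRMT1 against shScramble the ranges were 57 to 119 lower and 5 to 18 higher with cisplatin, and 4 to 20 lower and 2 to 9 higher untreated. For the difference of the responses they were 11 to 67 lower and 1 to 7 higher. Medians ran from -1.25 to -1.22 in shPRMT1 and -1.05 to -0.93 in shScramble cells, from -0.30 to -0.19 and -0.045 to 0.085 for shPRMT1 against shScramble with and without cisplatin, and from -0.35 to -0.22 for the difference.

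With 0.1 RPKM added the medians were -1.81 in shPRMT1 and -1.22 in shScramble cells, -0.37 for shPRMT1 against shScramble with cisplatin and -0.36 for the difference, and 10 genes were lower untreated. On recovered reads (voom) they were -1.92, -1.24, -0.41 and -0.37, with 28 lower untreated. On those reads 4262 of 18149 genes were lower and 5440 higher after cisplatin in shPRMT1 cells, and 2731 and 2879 in shScramble cells, with 251 and 205 of the 274 lower. Median-of-ratios scaling gave -0.98 in shScramble cells and -0.31 for the difference. With only the compared groups, 6 genes were lower and 2 higher in shPRMT1 cells untreated, and 9 higher with cisplatin. With the replicate block 39 genes were lower and 30 higher in shPRMT1 cells untreated, 105 lower in the difference, and 6 and 5 higher after cisplatin with #3 and #5 alone (main 2 and 3). The block moved no other count of the averaged comparisons by over 1.5 times. Without the level rule 4.04% were higher in shPRMT1 cells after cisplatin (main 2.55%), and genes without an overlapping gene gave 1.12% higher untreated and 4.47% higher in the difference (main 2.55% and 2.92%). NLGN4X reversed in the difference, to -0.11 with 0.1 RPKM added and -0.68 on reads. The cause of these shifts was not tested. The 2 shScramble libraries per condition and the reads behind genes under 0.1 RPKM limit these comparisons.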
